A study of Mus musculus with 6 samples.

Results

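The genes described here encode the vacuolar proton pump (V-ATPase) and the machinery at the lysosome surface through which amino acids reach the kinase complex mTORC1. They were taken by symbol from the deposited gene table: every gene whose symbol starts with Atp6v0, Atp6v1, Atp6ap1 or Atp6ap2, the Ragulator genes Lamtor1 to Lamtor5, the Rag GTPase genes Rraga to Rragd, and Rheb, Mtor, Rptor, Rictor, Mlst8, Tsc1, Tsc2, Slc38a9, Nprl2, Nprl3, Depdc5 and Wdr24. The rule took 49 of 55487 gene rows. Of these, 11 belong to the membrane domain V0 with its accessory proteins, 13 to the cytosolic domain V1 and 21 to signalling. The remaining 4 are not counted as subunits. They are the pseudogenes Atp6v0c-ps1 and Atp6v0c-ps2, Atp6v1fnb, a neighbouring gene that matches by name only, and Atp6ap1l, a relative of Atp6ap1.

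The RNA came from macrophages grown from bone marrow of female BALB/c mice, wild type and aged 6 to 12 weeks, and was sequenced after poly(A) enrichment. The tested cells (NP, n = 3) received poly(lactide-co-glycolide) nanoparticles at 200 µg/mL for 24 hours, and the vehicle cells (PBS, n = 3) received phosphate-buffered saline. The treatment label of the NP libraries reads PEMA, a term that the sources used here do not explain. All 6 cultures had grown for 8 days with 20% L929 fibroblast conditioned medium and had then been held for 24 hours with the cytokines IL-4 and IL-13 (10 ng/mL of each), which give the alternatively activated (M2) state. The labels do not say whether replicates came from separate animals or cultures, so p-values measure the spread between these libraries, which may be technical.

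The V-ATPase is a rotary pump. V1 hydrolyses ATP and turns a central shaft, and V0 carries protons through the membrane, which acidifies lysosomes and phagosomes, and the domains come apart and reassemble as a means of control. On the lysosome surface the pump binds Ragulator, a scaffold that holds the Rag GTPases, and active Rags recruit mTORC1 to its activator Rheb. GATOR1 switches RagA and RagB off, GATOR2 opposes GATOR1, the TSC complex switches Rheb off, and SLC38A9 reports lysosomal arginine. When mTORC1 is inactive, the transcription factors TFEB and TFE3 enter the nucleus and bind a motif with the core CACGTG in front of lysosomal genes. In macrophages this system acidifies the compartments that digest engulfed particles.

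The libraries held 41974957 to 69450411 counts, with all 3 NP libraries deeper than all 3 PBS libraries. Macrophage marker genes were found in all 6 libraries, with means over the libraries from 5.44 CPM (Fcgr1) to 7534 CPM (Lyz2). CPM are counts scaled to a common library size. Of the 7 on the list, 5 were lower in NP and 1 was higher, where 21.4% of all genes tested were lower and 19.8% higher. Their summed level, most of it Lyz2, was 9424 to 10434 CPM in NP and 11645 to 11945 CPM in PBS. T cell markers summed to at most 0.0166 CPM in NP libraries and 1.59 CPM in PBS libraries, and B cell markers to at most 0.116 CPM in NP libraries and 0.844 CPM in PBS libraries. Among them, Cd3e had 1, 55 and 34 counts and Pax5 had 1, 25 and 23 counts in PBS 1 to 3. Reads of these 2 genes thus lay mostly in PBS 2 and PBS 3. Erythroid markers summed to 0 CPM in NP libraries and at most 0.0195 CPM in PBS libraries. Olfactory and vomeronasal receptor genes, which macrophages are not known for, summed to 138 and 153 CPM in PBS 2 and PBS 3, against 9.70 to 12.5 CPM in the other 4 libraries. The part of these genes and of the macrophage markers in the results was not tested, and counts of members are also given with PBS 1 alone as vehicle. In bulk RNA, fewer cells of a type and less RNA per cell cannot be told apart.

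Promoter letters are shown for the members whose window holds CACGTG among the subunit genes, and for the pair Rragc and Rragd, of which Rragd changed and Rragc did not pass the test. This choice of genes was made after their values were seen. Each line gives RefSeq sequence on GRCm38.p6 from 150 bases before the gene's start to 30 bases from it, on the gene's own strand, with CACGTG in capitals. The starts are those of RefSeq, which need not be the outermost start of the gene in GENCODE. The shown windows of Atp6v0e and Atp6v1a lie wholly inside their GENCODE genes (chr17:26663231-26699647 for Atp6v0e and chr16:44085402-44139705 for Atp6v1a). Bases 21 to 40 after the start were found in a GENCODE transcript of the gene for 33 of the 41 windows of the members, which include all windows shown except that of Rragd. The windows are chr4:117887300-117887479 (Atp6v0b, minus strand), chr8:105566035-105566214 (Atp6v0d1, minus strand), chr17:26676246-26676425 (Atp6v0e, plus strand), chr16:44139230-44139409 (Atp6v1a, minus strand), chr4:123917283-123917462 (Rragc, plus strand) and chr4:32982848-32983027 (Rragd, plus strand).
Atp6v0b: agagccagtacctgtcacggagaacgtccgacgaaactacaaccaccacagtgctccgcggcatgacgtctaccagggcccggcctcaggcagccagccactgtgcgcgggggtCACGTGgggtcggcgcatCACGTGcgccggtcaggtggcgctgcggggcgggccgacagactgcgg
Atp6v0d1: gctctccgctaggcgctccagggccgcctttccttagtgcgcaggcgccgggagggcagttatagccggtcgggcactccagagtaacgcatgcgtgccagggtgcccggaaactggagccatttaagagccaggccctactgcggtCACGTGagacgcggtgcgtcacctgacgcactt
Atp6v0e: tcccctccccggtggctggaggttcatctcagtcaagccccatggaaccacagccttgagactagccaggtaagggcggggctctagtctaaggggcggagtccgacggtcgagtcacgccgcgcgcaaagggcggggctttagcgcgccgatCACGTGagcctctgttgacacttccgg
Atp6v1a: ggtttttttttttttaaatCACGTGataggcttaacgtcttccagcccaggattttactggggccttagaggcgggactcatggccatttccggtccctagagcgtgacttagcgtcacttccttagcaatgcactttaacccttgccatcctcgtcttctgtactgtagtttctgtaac
Rragc: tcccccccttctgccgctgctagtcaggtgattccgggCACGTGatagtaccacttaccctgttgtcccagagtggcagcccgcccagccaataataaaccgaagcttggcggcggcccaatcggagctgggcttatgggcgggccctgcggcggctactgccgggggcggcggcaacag
Rragd: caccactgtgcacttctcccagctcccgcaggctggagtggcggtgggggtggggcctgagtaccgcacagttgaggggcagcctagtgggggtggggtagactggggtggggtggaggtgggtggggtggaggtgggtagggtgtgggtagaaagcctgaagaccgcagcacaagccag

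CACGTG, which reads the same on both strands, was searched in the RefSeq windows of 250 bases before and 50 after each start. It stood in the windows of 4 of 18 subunit genes and 5 of 19 signalling genes, against 8.09% of all 27025 genes with a window. The first base of the match lay at -36 and -18 from the start in Atp6v0b, at -3 in Atp6v0d1, at 3 in Atp6v0e and at -131 in Atp6v1a. The longer TCACGTGA, which contains CACGTG, was found in Atp6v0d1, Atp6v0e and Atp6v1a, hence 3 of 18 subunit genes and 0 of 19 signalling genes, against 1.12% of all genes. All 4 subunit genes with CACGTG rose in NP at an adjusted p under 0.05, as did 4 of the 9 tested subunit genes whose window lacks it, where 19.8% of all genes tested rose. With PBS 1 alone as vehicle, Atp6v0e and Atp6v1a did not pass. The 5 signalling genes with CACGTG (Lamtor1, Lamtor4, Rheb, Rragb and Rragc) did not pass the test, while 5 of the 14 without it rose. This comparison of letters with calls was made after the calls were seen. A match is a string of letters and not a measured binding site. RefSeq windows were matched for 38 of the 49 members, without Atp6v0d2, Atp6v1c1, Atp6v1h, Atp6v1b2, Atp6v1g1, Atp6v0a2, Lamtor3, Wdr24 and the names Atp6v0c-ps1, Atp6v0c-ps2 and Atp6ap1l. Of the tested subunit genes without a window, Atp6v0d2, Atp6v1c1, Atp6v1h, Atp6v1b2 and Atp6v1g1 rose and Atp6v0a2 did not pass. The comparison of letters with calls thus leaves out the members with the largest changes.

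Most tested subunit genes of the pump rose in NP. Most signalling genes did not pass the test, and neither did 8514 of all 14478 genes tested. Of the 49 members, 41 passed the filter on low counts, and 19 were higher in NP and 2 lower at an adjusted p under 0.05. Over all 14478 genes tested, 19.8% were higher and 21.4% lower. The NP and PBS libraries of 26 members did not overlap, against 53.3% of all genes. The median log2 fold change (NP minus PBS) of the 41 members was 0.10, beside -0.0035 for all genes. By domain, 8 of 9 tested V1 genes rose and 0 fell (median 0.24), 5 of 10 tested V0 genes rose and 1 fell (median 0.15), and 5 of 21 signalling genes rose and 1 fell (median 0.04). The V0 class includes the accessory genes Atp6ap1 and Atp6ap2 and lacks Tcirg1, the a3 gene of V0, which the rule does not take by name. Without the accessory genes, 5 of 8 tested V0 genes rose and 1 fell, with a median of 0.23, near that of V1. The share of signalling genes that rose, 23.8%, was near the 19.8% of all genes. The differences between these 3 classes were not tested. With PBS 1 alone as vehicle, 14 members rose and 0 fell, of which 7 were V1, 4 V0 and 2 signalling genes and 1 was Atp6v0c-ps2.

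The changes were small. Of the called members, 5 had an absolute log2 fold change of at least 0.3 (Atp6v0d2, Atp6v1c1, Atp6v1h, Rragd and Atp6v1d) and 0 reached a 2-fold change. The median absolute log2 fold change of the 5964 called genes was 0.28. A total of 604 genes, 4.17% of those tested, had a larger log2 fold change than Atp6v0d2, the member with the largest.

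**Figure D1:**
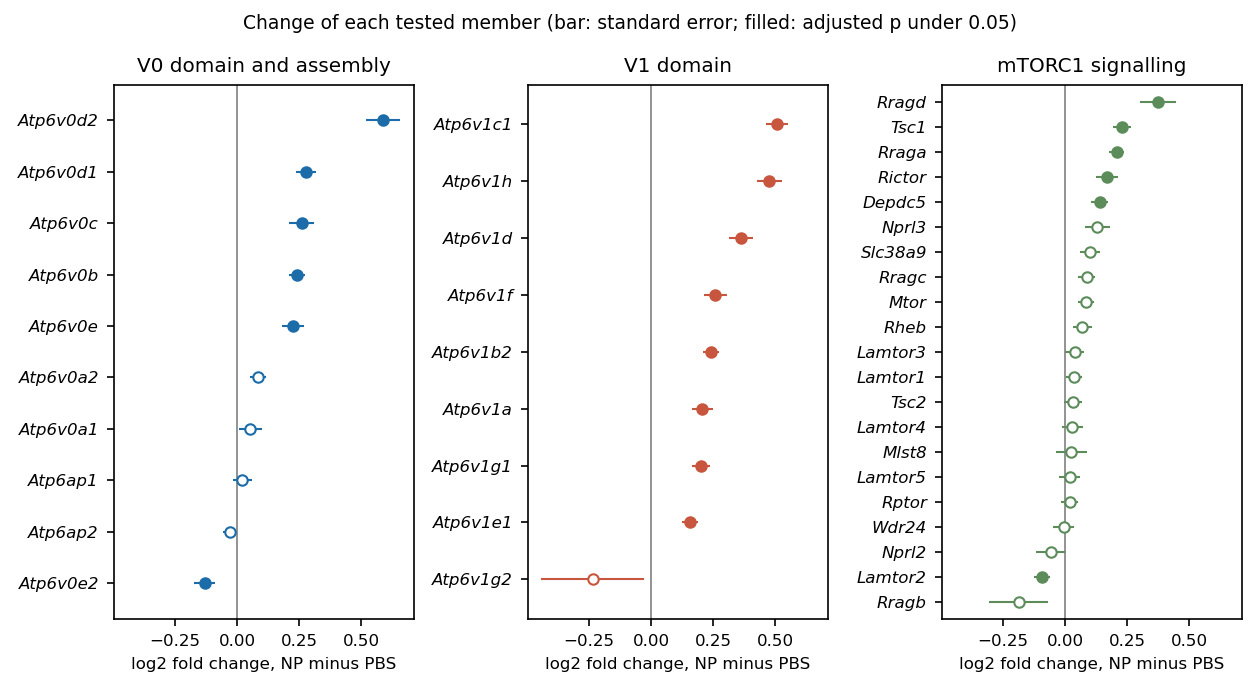
Log2 fold change, NP minus PBS, of the 40 tested subunit and signalling genes, with bars for the standard error and filled points for adjusted p under 0.05. V1 points lie to the right of 0 except Atp6v1g2, whereas most signalling points are open and near 0.

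In V0, the most abundant member and the one that changed most was Atp6v0d2 (chr4:19876841-19922605, minus strand, GRCm38, protein-coding), the d2 form of the subunit that joins V0 to the central shaft, a form known from osteoclasts, macrophages and some epithelia. It had 1400, 1162 and 1275 CPM in NP 1 to 3, against 795, 839 and 912 CPM in PBS 1 to 3. The lowest NP library stood above the highest PBS library. The log2 fold change was 0.59 (SE 0.07, adjusted p = 1.87e-04), or 50.5% higher. Per kilobase of exons its level was 471 ± 43.9 CPM in NP and 312 ± 21.8 CPM in PBS (SD, n = 3 each).

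The paralog of Atp6v0d2, Atp6v0d1, also rose, by 0.28 on the log2 scale (SE 0.04, adjusted p = 5.63e-04). Of the per-length level of the d subunit, Atp6v0d2 made up 76.3, 74.1 and 75.5% in NP 1 to 3, against 70.2, 71.4 and 71.6% in PBS 1 to 3. Its share thus lay higher in every NP library than in any PBS library.

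The genes of the proteolipids that form the rotating ring of V0 were higher in NP, as were those of the d subunits. Atp6v0c, subunit c, had 759, 815 and 821 CPM in NP 1 to 3, against 655, 630 and 716 CPM in PBS 1 to 3, a log2 fold change of 0.26 (SE 0.05, adjusted p = 0.00293). The groups did not overlap. The pseudogene Atp6v0c-ps2 took 11.5 to 11.9% of the combined Atp6v0c and Atp6v0c-ps2 counts in the 6 libraries and was called higher too (0.28). Reads of near-identical copies may have been divided between these genes by the counting, so neither value is certain. Atp6v0b, the c'' ring subunit, rose by 0.24 (SE 0.03, adjusted p = 3.58e-04), and an antisense gene overlaps 11.8% of its exonic bases.

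Subunit e is a small hydrophobic protein at the edge of the ring. Atp6v0e was higher (0.22, SE 0.04, adjusted p = 0.00333) and its paralog Atp6v0e2 lower (-0.13, SE 0.04, adjusted p = 0.0376). Atp6v0e made up 87.0 ± 0.814% of the per-length level of subunit e in NP and 84.0 ± 0.618% in PBS (SD, n = 3 each), without overlap. The Atp6v0e call was lost with PBS 1 alone as vehicle (adjusted p = 0.0572). The Atp6v0e2 call was lost in 8 of 15 alternatives, among them leaving out NP 1, NP 2, NP 3, PBS 1 or PBS 3.

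Subunit a is the stationary arm of V0, and its forms direct the pump to given membranes. Atp6v0a1 had 747, 706 and 733 CPM in NP 1 to 3, against 693, 666 and 752 CPM in PBS 1 to 3. The groups overlapped, and it did not pass the test (0.05, SE 0.05, adjusted p = 0.402). Atp6v0a2 did not pass either (0.08, adjusted p = 0.0566). Atp6v0a4, the form of kidney and inner ear, had 0 counts in all 6 libraries.

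The a3 form carries the symbol Tcirg1 and so lies outside the rule by name. Tcirg1, known for the osteoclast pump and for lysosomes, had 975, 900 and 950 CPM in NP 1 to 3, against 708, 674 and 660 CPM in PBS 1 to 3. Every NP library stood above every PBS library, and the log2 fold change was 0.47 (SE 0.04, adjusted p = 3.9e-05). Of the per-length level of subunit a, Tcirg1 made up 62.6 ± 0.335% in NP and 55.7 ± 1.99% in PBS, and Atp6v0a1 34.0 ± 0.206% in NP and 40.4 ± 2.01% in PBS (SD, n = 3 each). Neither share overlapped between groups. The accessory genes Atp6ap1 (0.02) and Atp6ap2 (-0.03), which help assemble V0, did not pass the test.

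**Figure D2:**
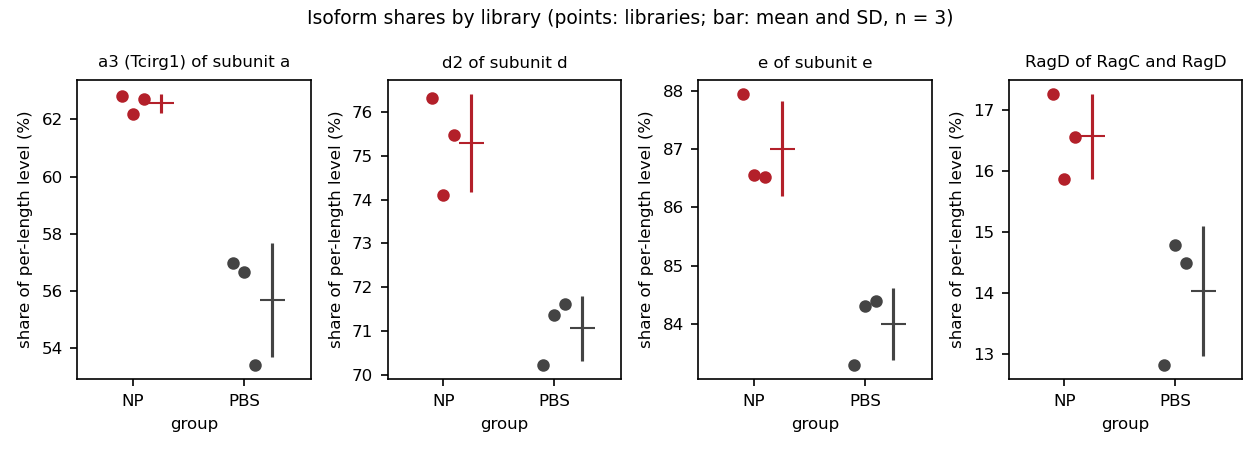
Share of the per-length level taken by the named form among the forms of its subunit, in percent, with a point for each library and the mean and SD of 3 libraries beside them. The vertical axes do not start at 0; in all 4 panels the NP points lie above the PBS points.

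In V1, the largest changes were in Atp6v1c1 and Atp6v1h, both of which encode subunits at the contact between V1 and V0. Atp6v1c1 (chr15:38661933-38692446, plus strand) encodes the C subunit, which clasps the outer stalks and is released when the pump comes apart. It had 555, 494 and 515 CPM in NP 1 to 3, against 354, 368 and 377 CPM in PBS 1 to 3. The groups lay well apart, with a log2 fold change of 0.51 (SE 0.05, adjusted p = 4.66e-05), or 42.1% higher.

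Atp6v1h (chr1:5070018-5162529, plus strand) encodes the H subunit, which is needed for activity of the assembled pump and holds freed V1 inactive. It had 230, 202 and 210 CPM in NP 1 to 3, against 148, 154 and 159 CPM in PBS 1 to 3. The lowest NP value again exceeded the highest PBS value, and the log2 fold change was 0.48 (SE 0.05, adjusted p = 1.04e-04).

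Atp6v1d (chr12:78840725-78861638, minus strand) encodes the D subunit of the central shaft. It had 274, 248 and 257 CPM in NP 1 to 3, against 190, 209 and 207 CPM in PBS 1 to 3. These groups did not overlap either, with a log2 fold change of 0.36 (SE 0.05, adjusted p = 3.32e-04). Its partner on the shaft, Atp6v1f, rose by 0.26.

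The catalytic head and the outer stalks rose as well. Atp6v1a, the ATP-hydrolysing A subunit, rose by 0.21, and Atp6v1b2, the B subunit of most cells, by 0.24. The outer stalk genes Atp6v1g1 and Atp6v1e1 rose by 0.20 and 0.16. The Atp6v1a call was lost with PBS 1 alone as vehicle (adjusted p = 0.0552). Atp6v1g2, the form known from neurons, had 0.695 to 0.945 CPM in NP and 0.790 to 1.13 CPM in PBS and did not pass the test (-0.24, adjusted p = 0.397).

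Other V1 forms were close to absent. Atp6v1b1 had 1 count in the NP group and 2 in the PBS group, Atp6v1c2 and Atp6v1e2 had 0 in NP and 1 in PBS, and Atp6v1g3 had 0 in both. Atp6v1b2, Atp6v1c1, Atp6v1e1 and Atp6v1g1 thus made up at least 99.8% of the mean per-length level of their subunit in NP and in PBS. Among the non-subunit names, Atp6v1fnb had 3 counts in NP and 0 in PBS, Atp6v0c-ps1 had 2 in NP and 4 in PBS, and Atp6ap1l had 0 in both. None of these 8 untested members had more than 2 counts in any library, where 3 counts equalled 0.0432 to 0.0715 CPM. Such limits cover counting error only.

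**Figure D3:**
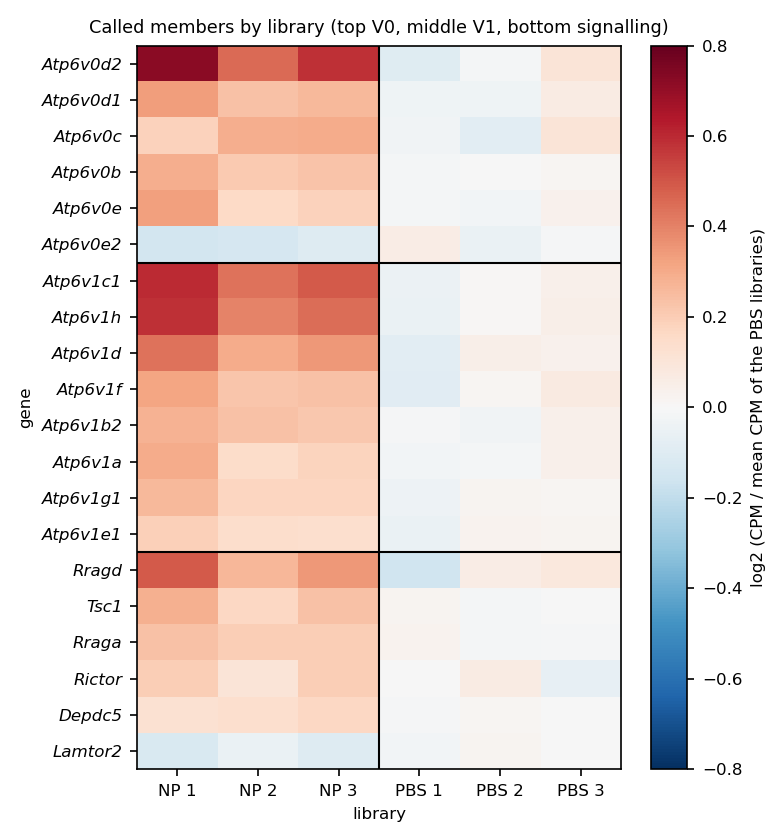
Log2 of the CPM of each called subunit or signalling gene over the mean CPM of the PBS libraries, by library, with V0 at the top, V1 in the middle and signalling at the bottom. NP 1 holds the darkest red for most higher genes, and Atp6v0e2 and Lamtor2 are blue in all 3 NP libraries.

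The spread within NP had a common order. Among the 19 members that rose, NP 1 had the highest NP value in 16 and NP 2 the lowest in 13. In PBS, PBS 3 had the highest value in 12 and PBS 1 the lowest in 11. NP 1 was also the deepest library. The part of depth in this order was not tested.

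Summed over its tested members, V1 had 3219, 2955 and 3010 CPM in NP 1 to 3, against 2439, 2500 and 2569 CPM in PBS 1 to 3, a ratio of means of 1.22. The V0 sum was 4324 ± 140 CPM in NP and 3615 ± 170 CPM in PBS (SD, n = 3 each), a ratio of 1.20. Atp6v0d2 carried much of that difference: without it the V0 sums were 3045 ± 22.4 CPM in NP and 2767 ± 121 CPM in PBS, a ratio of 1.10. Signalling genes summed to 1577 ± 35.5 CPM in NP and 1475 ± 12.6 CPM in PBS, a ratio of 1.07. No sum overlapped between groups. The V1 sum was 1.99, 1.91 and 1.93 times the signalling sum in NP 1 to 3, against 1.66 to 1.72 times in the 3 PBS libraries. The sum of V0 over that of V1 was 1.41 ± 0.0262 in NP and 1.44 ± 0.0419 in PBS (SD, n = 3 each), and there the groups overlapped. All V0 sums leave out the a3 gene Tcirg1, which lies outside the rule by name. Its mean was 942 CPM in NP and 681 CPM in PBS, so the V0 ratios hold only for the V0 genes that the rule took.

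**Figure D4:**
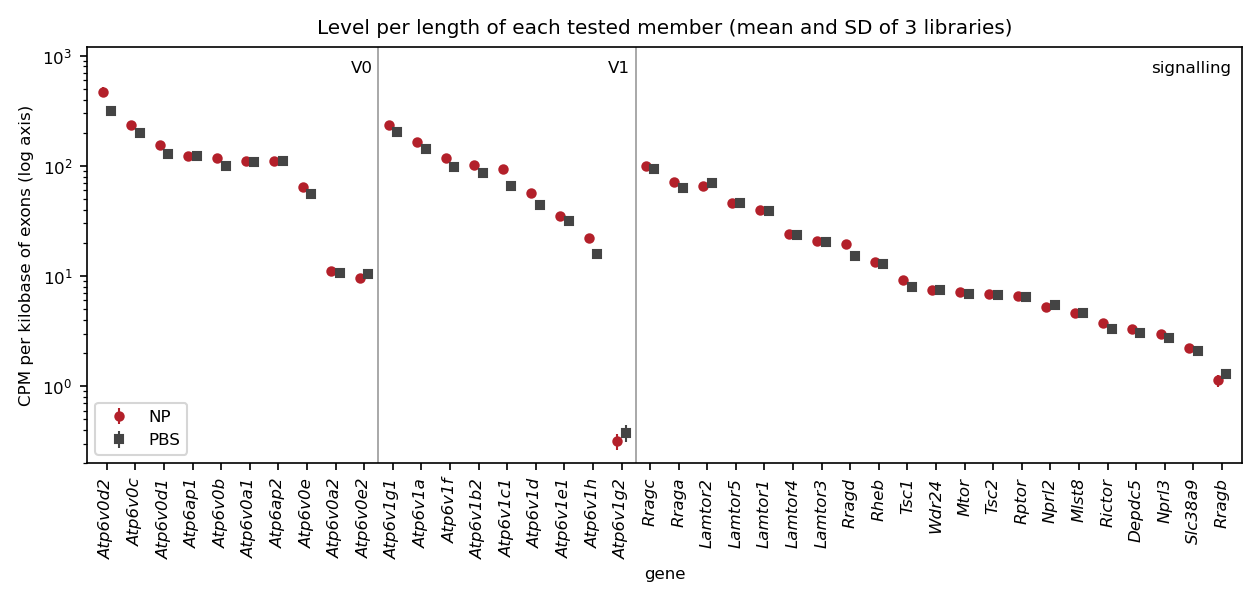
Level per kilobase of exons (CPM, log axis) of each tested subunit and signalling gene, as mean and SD of 3 NP libraries (circles) and 3 PBS libraries (squares). Most pump genes lie above most signalling genes in both groups.

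Per kilobase of exons, signalling genes had a median level of 7.47 CPM in NP and 7.51 CPM in PBS, against 93.1 CPM in NP and 65.4 CPM in PBS for V1. Both V1 medians are the level of Atp6v1c1, the V1 gene that changed most, so their difference is the change of that gene. The summed V1 level had a ratio of 1.22. The V0 median, without Tcirg1, was 115 CPM in NP and 110 CPM in PBS. The signalling genes with the highest per-length level were Rragc and Rraga, and the lowest was Rragb.

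Among the Rag GTPases, Rragd (chr4:32983037-33022180, plus strand) was the only signalling gene with an absolute log2 fold change of at least 0.3. RagD pairs with RagA or RagB, as RagC does. Rragd had 110, 94.3 and 99.9 CPM in NP 1 to 3, against 70.3, 81.9 and 83.4 CPM in PBS 1 to 3. The groups did not overlap, PBS 1 was the lowest library, and the log2 fold change was 0.37 (SE 0.07, adjusted p = 0.00297). Leaving libraries out and changing the scaling or filter gave 0.31 to 0.52.

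Rragc did not pass the test (0.09, adjusted p = 0.0667), although it passed in 5 of 15 alternatives. RagD made up 17.3, 15.9 and 16.6% of the per-length RagC and RagD level in NP 1 to 3, against 12.8, 14.8 and 14.5% in PBS 1 to 3, without overlap. Rraga rose by 0.21 (SE 0.03, adjusted p = 6.18e-04). Its close paralog Rragb had 2.35 to 2.90 CPM in NP and 2.81 to 2.98 CPM in PBS and did not pass (-0.19, adjusted p = 0.24).

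The Ragulator scaffold gave 0 higher genes of 5 and 1 lower, where 19.8% of all genes tested were higher and 21.4% lower. With 5 genes, these counts do not stand apart from those shares. Lamtor1, Lamtor3, Lamtor4 and Lamtor5 had log2 fold changes of 0.02 to 0.04 and did not pass the test. Lamtor2 was lower by a small margin (-0.09, SE 0.03, adjusted p = 0.0429), and that call was lost in 9 of 15 alternatives, among them leaving out NP 1, NP 3, PBS 1, PBS 2 or PBS 3. The arginine sensor gene Slc38a9 did not pass (0.10, adjusted p = 0.0765). The strand setting of the counting is not given in the sources used here, and 18.7% of the exonic bases of Lamtor1 overlap Lrrc51 on the other strand. Reads from such stretches can be told apart only if the counting used strand, which also holds for 22.5% of the exonic bases of Mlst8 (with Bricd5) and 17.7% of those of Nprl3 (with Mpg).

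Among the negative regulators, Tsc1, the stabilising partner in the TSC complex, rose by 0.23 (SE 0.04, adjusted p = 0.00108), while Tsc2, which holds the GTPase-activating domain, did not pass (0.03). Of GATOR1, Depdc5 rose by 0.14 (SE 0.03, adjusted p = 0.00913), and Nprl2 (-0.06) and Nprl3 (0.13) did not pass. Wdr24 of GATOR2 did not pass (-0.01). The Tsc1 and Depdc5 calls were lost with PBS 1 alone as vehicle (adjusted p = 0.0521 for Tsc1 and 0.117 for Depdc5).

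The kinase and its activator did not pass the test. Mtor (chr4:148448611-148557683) had 72.0, 72.8 and 74.4 CPM in NP 1 to 3, against 69.4, 67.3 and 69.8 CPM in PBS 1 to 3. The libraries did not overlap, but the log2 fold change was 0.09 (SE 0.03, adjusted p = 0.0563); it passed under the strict filter, with sample quality weights and without NP 1. Rheb (chr5:24802823-24842624) had 108, 101 and 103 CPM in NP 1 to 3, against 97.2, 97.8 and 102 CPM in PBS 1 to 3. The groups overlapped, and the log2 fold change was 0.07 (SE 0.04, adjusted p = 0.169).

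Of the subunits around the kinase, Rptor (0.02), which defines mTORC1, and Mlst8 (0.03), shared by mTORC1 and mTORC2, did not pass. Rictor, which defines mTORC2, rose by 0.17 (SE 0.04, adjusted p = 0.0125), and that call was lost without NP 3 and with PBS 1 alone as vehicle (adjusted p up to 0.0992).

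Genes of the same pathway outside the rule were counted from 5 lists of 72 genes, of which 70 were tested, 22 rose and 12 fell. Beside these counts and those of the single lists, 19.8% of all genes tested rose and 21.4% fell, so the share that fell over the 5 lists is near that of all genes. Among V-ATPase partners, 6 of 14 rose and 2 fell. Beside Tcirg1, the smallest p-values were those of Tmem199 (0.30) and Dmxl2 (0.40). Tmem199 acts in V0 assembly in the endoplasmic reticulum, and Dmxl2 belongs to the complex that rejoins V1 and V0. Of the other listed genes of that complex, Wdr7 rose (0.17), Rogdi fell (-0.45) and Dmxl1 did not pass the test (0.06). Among GATOR, KICSTOR and amino acid sensor genes, 1 of 14 rose and 5 fell. Sesn3 (-0.70) and Sesn1 (-0.37), members of the sestrin family that restrains mTORC1, fell, and the KICSTOR gene Itfg2 rose (0.30).

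Among partners of FLCN, TSC and mTOR, 5 of 14 rose and 2 fell, where 19.8% of all genes rose and 21.4% fell. Fnip2, which partners folliculin in switching on RagC and RagD, had 944, 849 and 887 CPM in NP 1 to 3, against 579, 592 and 608 CPM in PBS 1 to 3, without overlap. Its log2 fold change was 0.59 (SE 0.04, adjusted p = 1.8e-05). Deptor, an mTOR inhibitor, fell (-0.35) and Tti2, of an assembly complex, rose (0.30).

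Of mTORC1 substrates and lysosome regulators, 4 of 17 rose and 2 fell, shares near or below the 19.8% and 21.4% of all genes. Of these, Uvrag (0.15) and Foxk1 (0.19) rose and Lpin1 (-0.44) fell. Of the factors of the TFEB family in this list, Mitf fell (-0.14, SE 0.04, adjusted p = 0.022), and Tfeb (-0.03) and Tfe3 (-0.06) did not pass the test. Of transporters, 6 of 11 rose and 1 fell. The 3 with the smallest p-values do not all carry amino acids across the lysosome: Slc29a3, a lysosomal nucleoside transporter, rose (0.81), while Slc7a5 fell (-0.70) and Slc3a2 rose (0.49), the light and heavy chains of an amino acid transporter found mainly at the cell surface.

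Because osteoclasts are rich in V-ATPase, their markers were read beside the subunits. Of 7 osteoclast markers 5 were tested, of which 3 rose (Car2 by 1.36, Ctsk by 0.68 and Acp5 by 0.24), where 19.8% of all genes tested rose and 21.4% fell. Ocstamp fell (-0.67), and Dcstamp did not pass the test (0.23). The summed level of the 7 markers was 64.5 to 72.4 CPM in NP and 46.0 to 50.6 CPM in PBS. Car2 carried much of that difference, with a mean of 27.5 CPM in NP and 10.7 CPM in PBS. Calcr, the calcitonin receptor gene that defines mature osteoclasts, had 0 counts in all 6 libraries, and Oscar had at most 0.0663 CPM in NP and 0.0584 CPM in PBS. The part of these markers in the subunit values was not tested.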

How the data were processed

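The authors deposited gene-level expected counts for the 6 libraries, not scaled for depth and already whole numbers. STAR 2.7.8a, RSEM 1.3.3, cutadapt 2.3, MultiQC 1.7 and FastQC 0.11.8 appear, with build GRCm38 and no stated roles, in the submitters' processing notes; reads were pairs of 151 bp, per the labels' protocols. Neither the annotation release nor the strand setting is given there. Of 55491 rows, 4 reporter rows with 0 counts were left out. GENCODE M21 gave coordinates and exonic lengths.

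Genes with at least 0.171 CPM in at least 3 libraries and 15 counts in total were tested with limma 3.58.1 (voom, offset 0.5) in R 4.3.3, on group alone, with 4 residual degrees of freedom, TMM factors of 0.979 to 1.02 and Benjamini-Hochberg adjustment over all 14478 genes. TMM and the filter were written out after their published definitions and the fit was tested on simulated data. The automatic unit check could not read the table's layout, so edgeR, planned first, was not run. CPM uses TMM-scaled sizes over tested genes, except for receptor-gene sums and 3-count limits, which use library totals. Libraries of a group differed by more than sampling noise (chi-square per gene of 5.00 to 19.9), so none was counted as a duplicate.

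Members and lists were chosen with earlier results of these data known. Full values are given for called members with an absolute log2 fold change of at least 0.3 and for Mtor, Rheb, Atp6v0d2 and Atp6v0a1. Outside the rule, Tcirg1 has full values, and the 3 called genes of each list with the smallest adjusted p are named with their log2 fold change. Per-library values of Atp6v0c and Fnip2, and Mitf, Tfeb, Tfe3, Wdr7, Rogdi, Dmxl1 and the named marker genes, were added after their values were seen. Neutrophil markers summed to at most 1.13 CPM in NP libraries and 0.825 CPM in PBS libraries. Fibroblast markers summed to at most 1.38 CPM in NP and 1.45 CPM in PBS. Alternatives covered scaling, filter, model, replicate block, libraries left out, transcript length and motif.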

Additional observations from a re-analysis of the deposited data

How the results depend on the processing

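Of the 21 called members, 14 kept their call in all 15 alternatives, all of them higher in NP. With PBS 1 alone as vehicle, 2972 of all genes were called in place of 5964, and 2 signalling genes in place of 6; that fit has 2 residual degrees of freedom and assumes that the lone PBS library varies like the NP libraries. Leaving out each library in turn gave 4077 to 6466 called genes, 19 to 22 members, 5 to 6 V0 genes, 8 V1 genes and 4 to 8 signalling genes. No direction of a called member reversed. limma-trend called as many genes as voom (5964), of which 5891 were shared. The NP and PBS libraries share replicate numbers, and deviations of same-numbered libraries correlated at -0.147, -0.252 and -0.231. Those of differently numbered libraries correlated at -0.114 to 0.338. With 3 libraries per group, these values cannot decide whether the numbers mark shared animals or cultures. With a replicate block 5022 genes and 19 members were called. edgeR's quasi-likelihood test was not run. Isoform shares kept their direction with the longest transcript as length. Each group had 3 libraries, and 3 counts equalled 0.0432 to 0.0715 CPM.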
